A study of Mus musculus with 10 samples.

Results

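Synaptic adhesion genes encode the cell-surface proteins that join the sending and the receiving side of a synapse. They were taken as the autosomal protein-coding genes of the mouse RefSeq annotation whose symbols belong to the neurexins (Nrxn), neuroligins (Nlgn), LRRTM, SLITRK, contactins (Cntn), contactin-associated proteins (Cntnap), LRFN and latrophilins (Adgrl), with the receptor phosphatases Ptprd, Ptprs and Ptprf. The rule found 38 genes among 21887 protein-coding genes, on 17 chromosomes, and left out 3 further matches on the X chromosome. It used names only, and no measured value. H3K4me3, a methyl mark on the tail of histone H3 found at active and poised promoters, was mapped in them by chromatin immunoprecipitation and sequencing, as peak lists with no read counts. The material was NeuN-sorted neuronal nuclei from hippocampal area CA1 of male mice aged 3 months. One group of 4 libraries came from CamkdeltaC transgenic mice, which overexpress the C variant of CaM kinase II delta, a calcium-activated kinase, and serve as a model of heart failure, and the other 4 came from wildtype littermate controls. The promoter that drives the transgene is not given in the sources used here. The protocol also describes the drug Vorinostat or its vehicle in the drinking water from 2 months of age for 4 weeks, controls receiving vehicle, but no library used here carries a drug label. The comparison asks whether H3K4me3 in CA1 neurons differs between the genotypes, and a mark on fewer nuclei cannot be told apart from a narrower mark on each nucleus.

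Neurexins sit on the presynaptic membrane and bind neuroligins and LRRTM proteins across the cleft. The LAR-type receptor phosphatases are a further set of presynaptic hubs, whose partners include the SLITRK and LRFN proteins. Many of these genes are very long and are transcribed from several promoters, so that 1 locus makes proteins with different outer parts, as with the long alpha and short beta neurexins. The members had a median length of 166 kb, against 17.2 kb over all protein-coding genes, and 23 of the 38 were longer than 100 kb. Over 1 Mb were 6 of them, of 59 such genes in the genome.

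For that reason H3K4me3 was measured in 2 places. The first was the gene end: of the start and the end of a gene, the one with more bases under peaks within 2 kb (a stretch of 4001 bp), as the mean of the 8 libraries. The second was the gene's inside, over 2 kb from both ends. Both are bases covered by peaks, in bp, and no length beyond the window counts at the gene end. The annotation used here gives no exons, introns or untranslated regions, so positions are given within genes only.

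The libraries held 51903 to 102285 peaks, and transgenic replicate 1 stood apart with the highest number. Over the genome, peaks covered 37.5, 42.7, 42.7 and 43.1 Mb in control replicates 1 to 4. In transgenic replicates 1 to 4 they covered 57.7, 45.8, 45.2 and 48.8 Mb. Every transgenic list thus covered more than every control list, not only that of replicate 1. At the gene ends, in contrast, transgenic replicate 1 had the least coverage of all 8 libraries, 22.7 Mb summed over all protein-coding genes. The other libraries had 22.9 to 25.9 Mb there. All 5 general neuronal markers examined and 4 of 5 CA1 pyramidal markers had a peak at the gene end in all 8 libraries. This held for 2 of 3 interneuron markers (Gad1, Gad2) and 2 of 5 astrocyte markers (Slc1a3, Gja1). It also held for 2 of 7 oligodendrocyte-lineage markers (Mbp, Olig1), 2 of 4 endothelial markers (Cldn5, Kdr) and 0 of 5 microglial markers. No library had a peak at Aldh1l1, Mog, Mag, Pecam1, Csf1r, P2ry12, Aif1 and Tmem119. The summed coverage of each marker list overlapped between the groups, for example 10075 to 11008 bp in control and 9553 to 11609 bp in transgenic libraries for the CA1 list.

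For members with an annotated start site, sequences at such sites are shown because marked and unmarked starts of 1 gene lie side by side in them. The starts listed need not include a gene's outermost one. In Nrxn3, Adgrl2, Cntn3 and Cntn4 the first one listed lies 71.8, 34.5, 99.9 and 441 kb from the better covered gene end. Each is the RefSeq window of 300 bases, 250 before the start and 50 from it on, in assembly GRCm38.p6, which shares its coordinates with mm10. It is written 5′ to 3′ with the dinucleotide CG in capitals. CG reads the same on both strands, so 1 search covers both. The table gave 40 starts for 28 of the 38 members, and these 10 were picked after their peaks had been seen.
Nrxn3 start at 88794504 (chr12:88794254-88794553, plus strand): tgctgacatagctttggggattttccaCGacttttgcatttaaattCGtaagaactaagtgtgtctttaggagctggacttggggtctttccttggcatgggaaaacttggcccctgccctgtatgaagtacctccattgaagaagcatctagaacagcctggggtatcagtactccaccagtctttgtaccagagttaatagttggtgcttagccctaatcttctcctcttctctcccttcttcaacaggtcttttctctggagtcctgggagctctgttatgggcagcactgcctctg
Nrxn3 start at 88953390 (chr12:88953140-88953439, plus strand): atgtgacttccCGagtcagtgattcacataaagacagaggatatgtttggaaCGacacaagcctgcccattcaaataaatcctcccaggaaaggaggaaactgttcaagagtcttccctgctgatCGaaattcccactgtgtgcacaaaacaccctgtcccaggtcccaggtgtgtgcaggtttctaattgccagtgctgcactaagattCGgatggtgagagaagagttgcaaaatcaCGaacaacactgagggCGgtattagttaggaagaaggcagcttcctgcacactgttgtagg
Nrxn3 start at 89812483 (chr12:89812233-89812532, plus strand): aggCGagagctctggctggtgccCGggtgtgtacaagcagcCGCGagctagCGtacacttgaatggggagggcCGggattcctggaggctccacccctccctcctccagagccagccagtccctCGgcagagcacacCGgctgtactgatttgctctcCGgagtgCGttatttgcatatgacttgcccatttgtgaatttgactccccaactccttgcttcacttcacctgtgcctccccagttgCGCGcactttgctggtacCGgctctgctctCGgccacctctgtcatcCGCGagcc
Cntn1 start at 92051165 (chr15:92050915-92051214, plus strand): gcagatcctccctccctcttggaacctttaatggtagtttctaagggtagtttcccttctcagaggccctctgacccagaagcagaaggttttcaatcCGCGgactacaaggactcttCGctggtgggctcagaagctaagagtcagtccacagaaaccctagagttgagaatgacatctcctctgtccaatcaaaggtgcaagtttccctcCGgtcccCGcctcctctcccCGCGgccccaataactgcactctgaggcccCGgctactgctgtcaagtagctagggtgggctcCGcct
Cntn1 start at 92128128 (chr15:92127878-92128177, plus strand): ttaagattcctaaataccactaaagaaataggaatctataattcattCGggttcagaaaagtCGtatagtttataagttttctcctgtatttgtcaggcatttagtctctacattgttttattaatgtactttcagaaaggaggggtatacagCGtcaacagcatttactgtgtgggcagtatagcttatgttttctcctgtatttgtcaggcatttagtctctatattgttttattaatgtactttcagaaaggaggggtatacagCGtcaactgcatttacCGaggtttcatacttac
Cntn1 start at 92161357 (chr15:92161107-92161406, plus strand): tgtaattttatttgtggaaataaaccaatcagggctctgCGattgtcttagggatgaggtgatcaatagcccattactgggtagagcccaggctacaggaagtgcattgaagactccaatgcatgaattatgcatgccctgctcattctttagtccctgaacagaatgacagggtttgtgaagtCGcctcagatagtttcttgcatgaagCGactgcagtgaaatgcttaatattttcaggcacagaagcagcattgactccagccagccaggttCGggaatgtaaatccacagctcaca
Nlgn1 start at 26331909 (chr3:26331860-26332159, minus strand): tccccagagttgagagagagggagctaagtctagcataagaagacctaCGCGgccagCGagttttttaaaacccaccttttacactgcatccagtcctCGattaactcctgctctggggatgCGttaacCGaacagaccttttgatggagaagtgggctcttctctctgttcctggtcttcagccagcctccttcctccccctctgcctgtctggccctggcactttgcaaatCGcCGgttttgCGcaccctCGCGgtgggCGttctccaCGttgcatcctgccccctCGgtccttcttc
Nlgn1 start at 26153986 (chr3:26153937-26154236, minus strand): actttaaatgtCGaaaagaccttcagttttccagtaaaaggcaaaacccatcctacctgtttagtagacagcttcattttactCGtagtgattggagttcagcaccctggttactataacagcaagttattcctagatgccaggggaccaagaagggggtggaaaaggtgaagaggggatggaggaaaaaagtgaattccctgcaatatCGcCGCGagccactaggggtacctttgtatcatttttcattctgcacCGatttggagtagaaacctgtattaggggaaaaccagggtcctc
Lrrtm1 start at 77242477 (chr6:77242227-77242526, plus strand): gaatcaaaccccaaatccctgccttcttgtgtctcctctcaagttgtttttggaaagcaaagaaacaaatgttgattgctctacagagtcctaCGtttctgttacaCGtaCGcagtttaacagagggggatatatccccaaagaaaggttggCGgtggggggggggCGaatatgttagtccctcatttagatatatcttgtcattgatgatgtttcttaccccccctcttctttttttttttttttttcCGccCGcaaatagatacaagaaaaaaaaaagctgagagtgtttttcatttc
Adgrl4 start at 151437882 (chr3:151437632-151437931, plus strand): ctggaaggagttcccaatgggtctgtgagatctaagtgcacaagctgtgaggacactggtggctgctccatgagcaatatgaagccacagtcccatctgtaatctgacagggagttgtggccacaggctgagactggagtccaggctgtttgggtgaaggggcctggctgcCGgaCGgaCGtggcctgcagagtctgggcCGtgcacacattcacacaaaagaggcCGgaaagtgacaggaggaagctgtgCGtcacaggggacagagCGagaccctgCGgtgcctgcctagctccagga

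The 3 Nrxn3 windows hold 2, 6 and 16 CG in the order printed. No library had a peak in the window at 88794504, or within 2 kb of it, while all 8 had one at 88953390 and at 89812483, deep inside the gene. Within 2 kb of these starts 1573 to 2288 bp and 1617 to 2504 bp were covered. The better covered gene end of Nrxn3, at 88722701, has no start listed, and all 8 libraries had a peak within 2 kb of it. Cntn1, which encodes a contactin of axons and of the paranodal junctions beside nodes of Ranvier, also had marked and unmarked starts. Its starts at 92051165, with 9 CG, and at 92161357, with 4 CG, were marked in all 8 libraries, and its start between them at 92128128, with 5 CG, in none. Both Nlgn1 starts were marked in all 8 libraries, that at 26331909, with 14 CG, over the whole 4001 bp in each library, and that at 26153986, with 6 CG, over 2061 to 2147 bp.

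Lrrtm1 and Adgrl4 were the members with no peak at either gene end in any library. In Lrrtm1 (chr6:77229210-77259915), which encodes a postsynaptic neurexin partner of excitatory synapses, the mark lay instead at the annotated start printed above, 13.3 kb inside the gene. In Adgrl4 (chr3:151437882-151545081), a latrophilin relative best known from blood vessels, the annotated start is the gene end itself, with 8 CG, and it had no peak in any library. The other unmarked starts were those of Adgrl2 at 148954635, with 4 CG, and of Cntn3 at 102464667, with 0 CG. Both of these genes carried their mark at the gene end, 34.5 kb and 99.9 kb away from those starts.

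Of the 40 member starts, 31 had a peak in the 300-base window in all 8 libraries, 4 in some libraries and 5 in none. The median number of CG was 13 in the 31 marked windows and 4 in the 5 unmarked ones, of which 0 held 10 or more. Over all 32851 windows of the table the median was 21 for the 12528 marked in all 8 libraries and 3 for the 16511 marked in none. At least 1 CG was present in 97.5% of the member windows and 94.6% of all windows, and at least 10 in 55.0% and 43.5%. Member windows overlap where starts of 1 gene lie close together, so they are not independent. The fewest CG in a window marked in all 8 libraries were 4, at 1 start each of Lrrtm4, Slitrk6, Cntn6, Cntn1 and Cntn4. At the first starts of Ptprs, Ptprf and Adgrl1, with 21, 30 and 28 CG, the window itself had a peak in only 2, 5 and 7 libraries, whereas peaks within 2 kb covered 1854 bp or more, 899 bp or more and 2757 bp or more in each library.

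**Figure D1:**
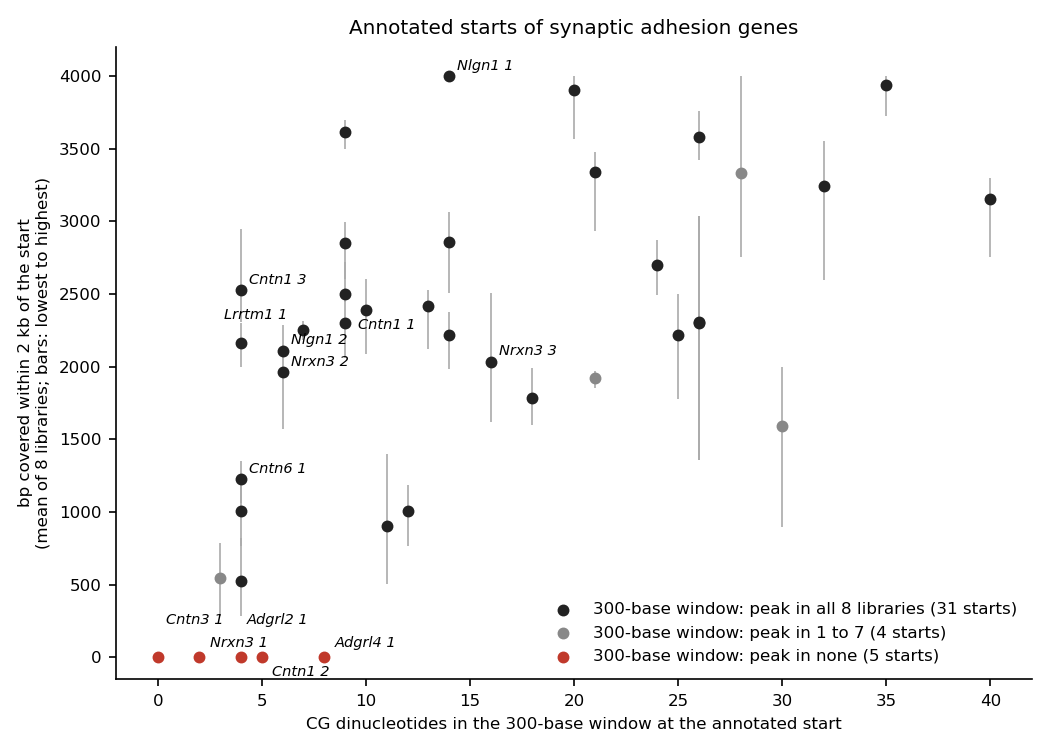
Each point is 1 of the 40 annotated starts of synaptic adhesion genes, with the number of CG dinucleotides in its 300-base window on the x axis and the bp covered by peaks within 2 kb on the y axis (mean of 8 libraries; bars run from the lowest to the highest library). Black points have a peak in the window in all 8 libraries, grey points in 1 to 7 and red points in none; the 5 red points hold 0 to 8 CG, and numbered labels name starts described in the text.

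At the gene ends, 36 of the 38 members had a peak in all 8 libraries. These 36 were covered over a median of 2346 bp, against 1664 bp over all 14753 genes tested, and 30 of them lay above that median. The member with the widest gene end was Adgrl2 (chr3:148815586-148989096), a latrophilin, with 3874, 4001, 3673 and 3869 bp in control replicates 1 to 4 and 3423, 3691, 3697 and 3879 bp in the transgenic replicates. Close behind it by the mean of 8 libraries came Ptprd, Nlgn2 and Slitrk5, with 3596, 3584 and 3582 bp, which their ranges of 3175 to 4001, 3423 to 3760 and 3177 to 3937 bp do not set apart. At the other end of the order were Cntnap3, with 886 bp, and Slitrk6, a SLITRK gene known from the inner ear and eye, with 528 bp and a range of 287 to 819 bp. By the authors' peak score, ranked within each library's own list, the highest gene-end peaks were those of Adgrl3 (median percentile 99.4), Nlgn2 (98.2), Slitrk3 (98.2) and Slitrk1 (98.0), and the lowest that of Slitrk6 (62.2). In the window at its gene end Adgrl3 was covered over 1671 bp, the 30th value of the members, but its marked region, chr5:81019251-81025081, runs on into the gene and was covered over 5202 bp on average, so that its place in the order follows from the window.

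**Figure D2:**
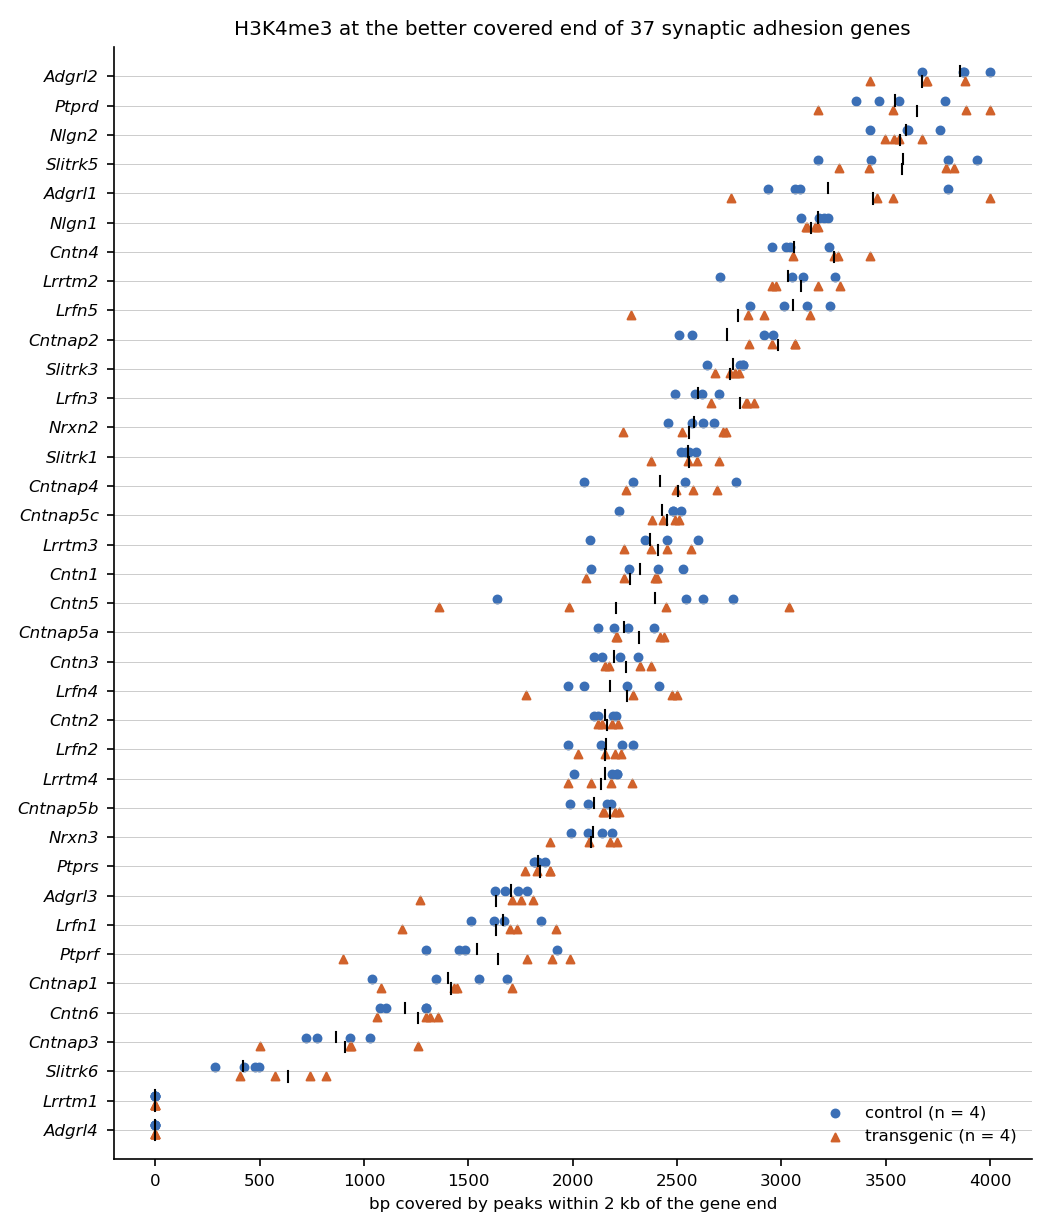
Bases covered by H3K4me3 peaks within 2 kb of the better covered gene end (x axis, bp) in each library, for 37 members in order of their mean. Blue circles are the 4 control and orange triangles the 4 transgenic libraries, and black ticks the group means; the symbols overlap in every row, from Adgrl2 at 3763 bp to Lrrtm1 and Adgrl4 at 0.

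No member's gene end passed the test for a difference between transgenic and control libraries. The limma test with Benjamini-Hochberg adjustment called 0 of the 36 tested and 0 of all 14753 genes, a background of 0%, and the smallest adjusted p of a member was 1.00. At an unadjusted p under 0.05 it gave 0 members, against 4.12% of all genes (2.8% higher and 1.32% lower in the transgenic libraries). The moderated test without the trended, robust variance also gave 0 members at that p. With groups that did not overlap there were 0 members, against 2.35% of all genes. Differences are given as transgenic minus control in log2(bp + 100), centred per library on its median over genes with a peak in all 8, so they are relative to other genes and understate changes of narrow marks. Of the 36 members 15 lay above 0 and 21 below, with a median of -0.01, the median over all genes being -0.01 too. Without centring, 22 lay above 0 and 14 below. The intervals were narrow for most members: in 34 of 36 the 95% confidence interval lay within a 1.5-fold change in either direction, and in 27 within 1.2-fold. Over all genes tested the share within 1.5-fold was 81.4%.

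Nrxn2 and Nrxn3, presynaptic receptors at the centre of this network, overlapped in coverage between the genotypes. Nrxn2 (chr19:6418756-6533217, mm10) had 2457, 2676, 2570 and 2626 bp in control and 2241, 2718, 2526 and 2735 bp in transgenic libraries at its gene end, so that transgenic libraries held both the highest and the lowest value. Its log2 difference was -0.04 (SE 0.05, limma adjusted p 1.00). Nrxn3 (chr12:88722701-90334935) had 2071, 2141, 1990 and 2188 bp in control and 2178, 2213, 2078 and 1891 bp in transgenic libraries, again with both extremes in the transgenic group. Its log2 difference was -0.03 (SE 0.08, limma adjusted p 1.00).

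Among the LAR-type phosphatases, the other presynaptic hubs, Ptprd was covered more widely than Ptprs and Ptprf in every library. The ranges of Ptprs and Ptprf overlapped each other, and in each gene the genotypes overlapped. Ptprd (chr4:75941237-78211742), which takes part in forming both excitatory and inhibitory synapses, had 3566, 3357, 3466 and 3784 bp in control and 3175, 3535, 3883 and 4001 bp in transgenic libraries, with transgenic replicate 4 filling the window. Its log2 difference was 0.02 (SE 0.05, limma adjusted p 1.00). Ptprs (chr17:56412426-56476561), also a receptor for proteoglycans, had 1816, 1834, 1820 and 1868 bp in control and 1773, 1831, 1889 and 1889 bp in transgenic libraries. The 8 values lay close together, with the lowest and the highest in the transgenic group, and the log2 difference was -0.01 (SE 0.05, limma adjusted p 1.00), turning to 0.01 without centring. Ptprf (chr4:118208213-118291405), the LAR protein itself, had 1486, 1298, 1457 and 1923 bp in control and 899, 1899, 1783 and 1988 bp in transgenic libraries. Transgenic replicate 1 was the lowest and the other transgenic values lay in the upper part of the range, with a difference of 0.02 in log2 (SE 0.19, limma adjusted p 1.00). Without transgenic replicate 1 it was 0.23.

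On the postsynaptic side, Nlgn1 (chr3:25421808-26332866), the neuroligin of excitatory synapses, had 3224, 3095, 3181 and 3206 bp in control and 3162, 3174, 3125 and 3116 bp in transgenic libraries. All transgenic values lay inside the control range, and the log2 difference was -0.03 (SE 0.05, limma adjusted p 1.00). Nlgn2 (chr11:69823123-69837784), the neuroligin of inhibitory synapses, had 3423, 3760, 3604 and 3609 bp in control and 3565, 3498, 3673 and 3539 bp in transgenic libraries, where the control values again spanned the transgenic ones. Its log2 difference was -0.03 (SE 0.05, limma adjusted p 1.00). The window of Nlgn2 also holds an end of the neighbouring gene Tmem256, so the coverage there belongs to both.

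The remaining members are the postsynaptic and axonal families. The 6 contactins had gene-end means of 1226 to 3156 bp, and 3 lay above and 3 below 0 in log2 difference, from -0.16 in Cntn5 to 0.06 in Cntn4. The 7 contactin-associated genes had 886 to 2861 bp, 4 above and 3 below 0, from -0.01 to 0.10. The window of Cntnap1, which encodes the paranodal partner of the Cntn1 protein, also holds an end of the neighbour Ccr10. The 5 LRFN genes had 1649 to 2925 bp and the 4 SLITRK genes 528 to 3582 bp, in each family with more members below 0 than above. Slitrk1, at 4.25 kb the shortest SLITRK gene, was covered at both ends, over 2555 and 2502 bp, and its annotated start is at the second of these. Of the LRRTM genes 3 of 4 were tested, with 2144 to 3062 bp and log2 differences of -0.03 to 0.01.

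The members with the smallest p at the gene end were of the LRFN, latrophilin, SLITRK and CNTNAP families, and none passed the test. Lrfn5 (chr12:61522851-61857928), a partner of LAR-type phosphatases, had 2850, 3235, 3121 and 3013 bp in control and 2280, 3136, 2842 and 2919 bp in transgenic libraries. The group ranges overlapped, transgenic replicate 1 being the lowest, and the log2 difference was -0.15 (SE 0.07, limma adjusted p 1.00). The values of Adgrl2, given above, had a difference of -0.09 in log2 (SE 0.04, limma adjusted p 1.00), with 3 of 4 transgenic values within the control range of 3673 to 4001 bp. Adgrl3 (chr5:81019085-81827825), a latrophilin that binds teneurins and FLRT proteins, had 1630, 1676, 1739 and 1781 bp in control and 1268, 1752, 1810 and 1708 bp in transgenic libraries, where only transgenic replicate 1 fell below the control range. Its log2 difference was -0.09 (SE 0.08, limma adjusted p 1.00), or -0.02 without that replicate and -0.03 with a window of 5 kb.

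In the other direction, Lrfn3 (chr7:30355514-30362772) had 2700, 2492, 2584 and 2622 bp in control and 2663, 2835, 2831 and 2870 bp in transgenic libraries. All but 1 of the transgenic values lay above the control range, and the log2 difference was 0.08 (SE 0.05, limma adjusted p 1.00). Slitrk6 (chr14:110747338-110755204) had 476, 425, 287 and 496 bp in control and 739, 573, 819 and 406 bp in transgenic libraries, with replicate 4 of the transgenic group inside the control range. Its log2 difference of 0.46 (SE 0.28, limma adjusted p 1.00) was the largest of the members, on the narrowest mark among them. It was 0.17 with peaks of −log10 q of at least 5, 0.27 with equal numbers of top-ranked peaks or a pseudocount of 500 bp, 0.29 with quantile normalization, and 0.32 to 0.65 with 1 library left out. Cntnap2 (chr6:45060061-47301393), which encodes a protein that clusters potassium channels along axons, had 2510, 2570, 2960 and 2916 bp in control and 3065, 2847, 3065 and 2953 bp in transgenic libraries. The upper control values overlapped the lower transgenic ones, and the log2 difference was 0.10 (SE 0.06, limma adjusted p 1.00).

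**Figure D3:**
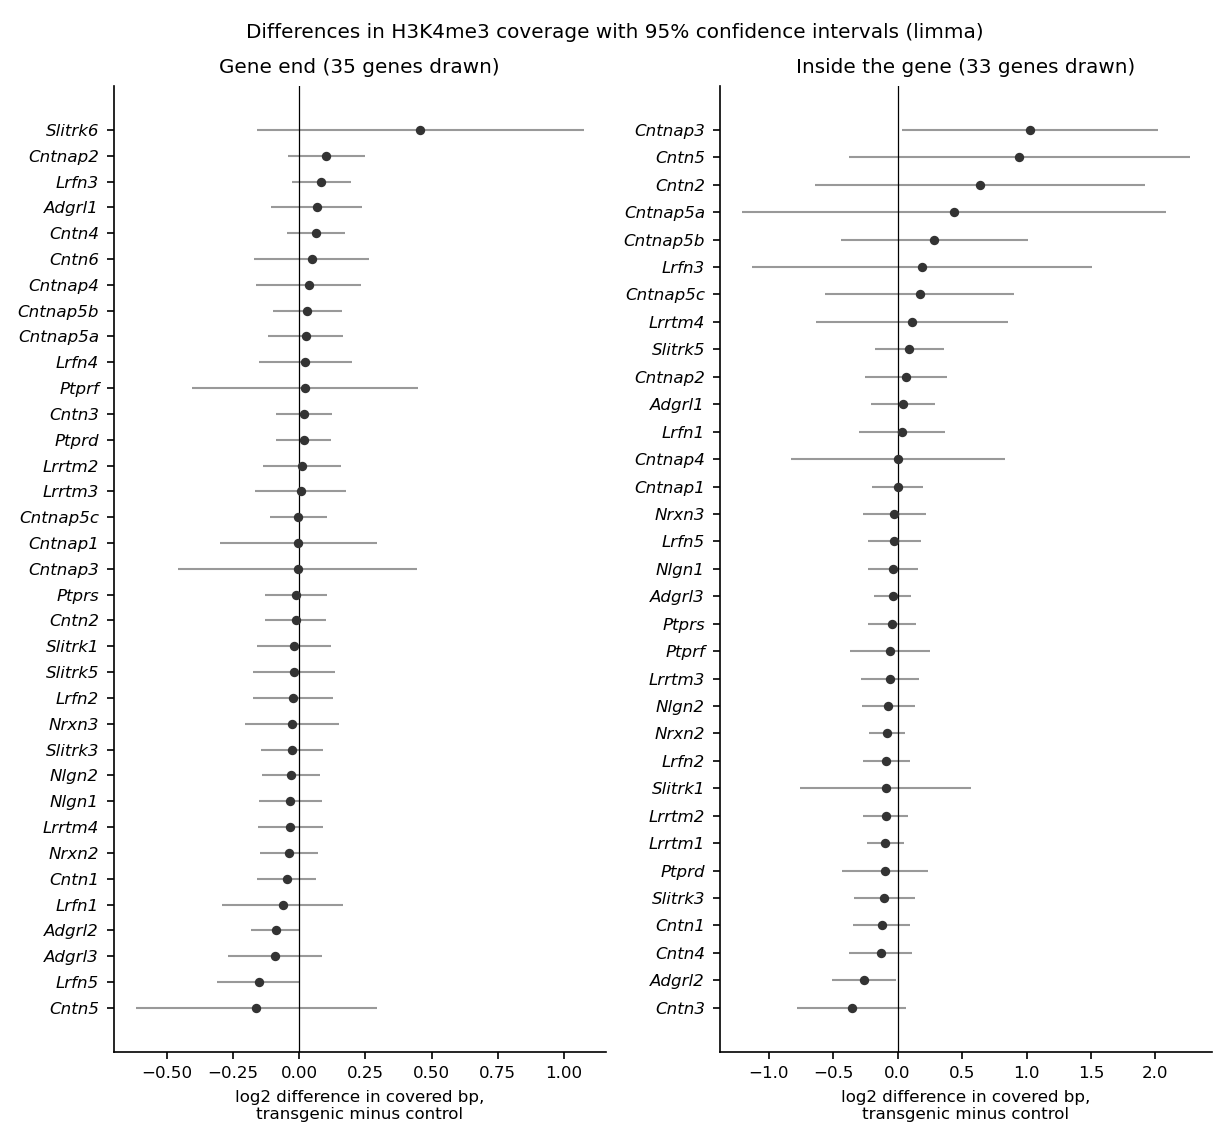
Log2 difference in bases covered by H3K4me3 peaks, transgenic minus control, with 95% confidence intervals from limma (x axis), for 35 members at the gene end (left) and 33 inside the gene (right, on a wider axis). All gene-end intervals cross 0; inside the gene those of Cntnap3 and Adgrl2 do not, before adjustment over all genes.

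Inside the gene, away from both ends, 34 of the 38 members had bases under peaks in at least 4 libraries and 30 in all 8. In 11 of these 34 no marked region was clear of both gene ends, so that these bases lay in regions that reach in from an end or in peaks of single libraries: Adgrl3, Cntn2, Cntn3, Cntnap1, Cntnap5a, Cntnap5b, Lrfn3, Lrrtm2, Nlgn2, Slitrk1 and Slitrk3. With peaks that touch the better end left out whole, 30 members were tested and 0 called. The 4 with none in any library were Slitrk6, Cntn6, Adgrl4 and Lrfn4, the last of which is too short to have an inside. The 34 were covered over a median of 2052 bp, against 935 bp over the 6412 genes with such peaks, which were not matched for length. Nrxn2, 114 kb long, was rich in internal bases, with 8050, 8910, 8902 and 9206 bp in control and 8495, 9791, 7974 and 9192 bp in transgenic libraries. Lrrtm1 had 6786 bp inside as the mean of 8 libraries, Nrxn3 6523, Ptprs 5134 and Nlgn1 5013 bp. The inside of Slitrk1 and that of Lrrtm2, 252 and 2022 bp long, were covered in full in every library, so that their coverage could not have been higher.

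**Figure D4:**
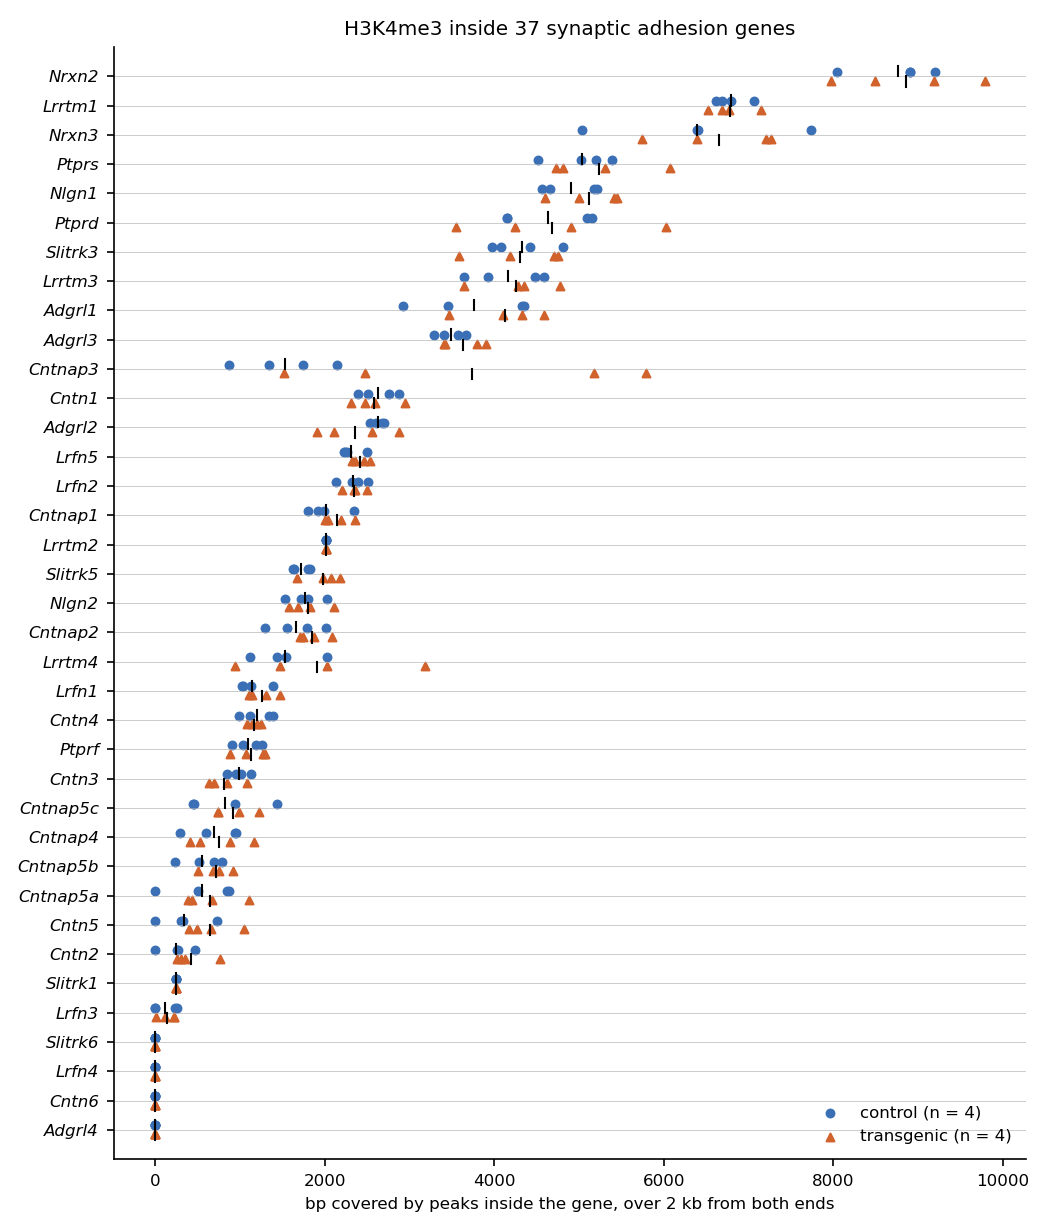
Bases covered by H3K4me3 peaks inside the gene, over 2 kb from both ends (x axis, bp), in each library for 37 members in order of their mean. Blue circles are the 4 control and orange triangles the 4 transgenic libraries, and black ticks the group means; Nrxn2 lies highest, the groups overlap in every row, and in Cntnap3 transgenic replicates 1 and 2 lie far to the right of the other 6 libraries.

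Internal coverage passed the test in no member either. The limma test called 0 of 34 members and 0 of all 6412 genes, a background of 0%, with a smallest adjusted p of 0.812 among the members. At an unadjusted p under 0.05 there were 2 of 34 members, 1 higher and 1 lower, against 6.05% of all genes (3.9% higher and 2.15% lower), a share that is not a result about the members. With the moderated test run without the trended, robust variance the members counted at that p were 0. Groups that did not overlap were found in 0 members, against 3.95% of all genes. Of the 34, 13 lay above 0 and 21 below with a median log2 difference of -0.04, the median over all genes being -0.02. Without centring, 27 lay above 0 and 7 below and the medians were 0.06 over the members and 0.07 over all genes. An inside of the same length in every library, such as that of Lrrtm2, therefore reads as -0.09 on the centred scale. The 95% confidence interval lay within a 1.5-fold change in 23 of 34 members, and within 1.2-fold in 8. Over all genes tested the share within 1.5-fold was 40.6%. The 23 include Lrrtm2, whose inside was covered in full in every library.

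Inside Nrxn2 the log2 difference was -0.08 (SE 0.06, limma adjusted p 0.918), and it turned to 0.01 without centring. Nrxn3 had 5035, 6389, 7733 and 6407 bp in control and 5748, 7213, 6393 and 7265 bp in transgenic libraries. Its widest and its narrowest values were both control ones, and the log2 difference was -0.03 (SE 0.11, limma adjusted p 1.00), or 0.07 without centring. Ptprd had 4148, 4146, 5156 and 5100 bp in control and 3555, 4252, 6033 and 4907 bp in transgenic libraries, a difference of -0.10 in log2 (SE 0.15, limma adjusted p 0.982). Ptprs had 4519, 5390, 5206 and 5025 bp in control and 4813, 6079, 4726 and 5311 bp in transgenic libraries, a difference of -0.04 in log2 (SE 0.08, limma adjusted p 1.00). In Ptprf, with 904, 1190, 1267 and 1037 bp in control and 889, 1300, 1068 and 1275 bp in transgenic libraries, it was -0.06 (SE 0.14, limma adjusted p 1.00). In all 3 phosphatases the groups overlapped, and in Ptprs and Ptprf the sign turned without centring.

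Nlgn1 had 5215, 4661, 4569 and 5182 bp in control and 4605, 5005, 5450 and 5420 bp in transgenic libraries inside the gene, a difference of -0.03 in log2 (SE 0.08, limma adjusted p 1.00) that was 0.06 without centring. Nlgn2 had 1532, 1804, 1722 and 2030 bp in control and 1576, 1682, 1829 and 2114 bp in transgenic libraries, a difference of -0.07 in log2 (SE 0.09, limma adjusted p 0.966) that was 0.02 without centring. Its 1 marked region, chr11:69833671-69839543, lies over the gene end, and the bases counted inside are its inner part. The groups of both neuroligins overlapped over nearly their whole range.

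The smallest p inside the gene belonged to Adgrl2, with 2541, 2611, 2695 and 2678 bp in control and 2105, 2556, 1914 and 2875 bp in transgenic libraries. The control values lay close together and inside the wider spread of the transgenic ones, and the log2 difference was -0.26 (SE 0.11, unadjusted p 0.0436, limma adjusted p 0.812). Cntn3 (chr6:102163304-102564614), a contactin, had 958, 843, 1012 and 1136 bp in control and 845, 699, 1086 and 639 bp in transgenic libraries, of which 2 fell below the control range. Its log2 difference was -0.36 (SE 0.19, limma adjusted p 0.883). Lrrtm1 had 6690, 6613, 7061 and 6797 bp in control and 6689, 6771, 6520 and 7150 bp in transgenic libraries, nearly the same range, and its log2 difference of -0.10 (SE 0.06, limma adjusted p 0.898) is close to the -0.09 of Lrrtm2, whose inside had 1 length in all libraries.

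Above 0, Cntnap3 (chr13:64737591-64904029) had 1343, 2145, 876 and 1744 bp in control and 5175, 5791, 1517 and 2471 bp in transgenic libraries. Transgenic replicates 1 and 2 stood far above the other 6 libraries, which overlapped, and the log2 difference was 1.02 (SE 0.43, unadjusted p 0.0446, limma adjusted p 0.813). It was 0.35 with equal numbers of top-ranked peaks in each library and 1.86 with peaks of −log10 q of at least 5. This coverage was scattered: of 21 regions at Cntnap3 only that at the gene end was present in all 8 libraries. Cntn5 (chr9:9634223-10904775) had 0, 307, 331 and 732 bp in control and 400, 662, 493 and 1044 bp in transgenic libraries, with a difference of 0.94 in log2 (SE 0.58, limma adjusted p 0.897). Cntn2 (chr1:132509425-132543251), the partner of Cntnap2 in axons, had 0, 257, 273 and 471 bp in control and 764, 356, 262 and 308 bp in transgenic libraries, with a difference of 0.64 in log2 (SE 0.56, limma adjusted p 0.928). Both of these contactins had 1 control library, replicate 1, with no bases under peaks inside the gene, and the rest of the values overlapped. Without control replicate 1 the log2 differences were 0.38 in Cntn5 and 0.16 in Cntn2, and without transgenic replicate 1 that of Cntn2 was 0.34. A pseudocount of 10 bp gave 1.78 and 1.42 for the pair and one of 500 bp 0.42 and 0.23. In Cntn5 equal numbers of top-ranked peaks gave 0.32 and peaks of −log10 q of at least 5 gave 0.4953.

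Single regions show where in the genes the mark lay. The union of the 8 peak lists, limited to stretches marked in 2 or more libraries, held 116 regions at members, 44 at the better covered end, 66 inside and 6 at the other end. Of these 61 were present in all 8 libraries, 21 of them inside the gene. Of the members, 1 had 4 regions in all 8 libraries, 6 had 3, 9 had 2, 21 had 1 and Adgrl4 had 0.

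Nrxn2 had the widest internal region of any member, chr19:6496593-6504827 (mm10), which begins 77.8 kb from the gene end. It was covered over 7440, 7247, 7922 and 7682 bp in control and 7611, 7910, 7200 and 7844 bp in transgenic libraries, against 3263 bp on average over the region at its gene end. Nrxn3 had 3 regions in all 8 libraries, chr12:88722489-88727200 at the gene end and 2 inside, chr12:88952843-88955805 and chr12:89811521-89814420, which hold the marked starts printed above. Lrrtm1 had 1 region, chr6:77242164-77249344, covered over 6786 bp on average, and it lies within the host gene Ctnna2, an alpha-catenin gene. Lrrtm2, Lrrtm3 and Lrfn4 also lie inside other protein-coding genes, Ctnna1, Ctnna3 and Pcx, so 4 members share their bases with a host. Long noncoding RNA genes overlap further regions, Gm52381 the widest internal region of Nrxn2 and Gm40537 the Nrxn3 region at 88952843. Such genes also overlap gene-end regions of Lrfn5, Ptprd, Nlgn1, Slitrk5, Ptprs and Adgrl1, among others. Coverage in these regions cannot be assigned to the member alone.

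**Figure D5:**
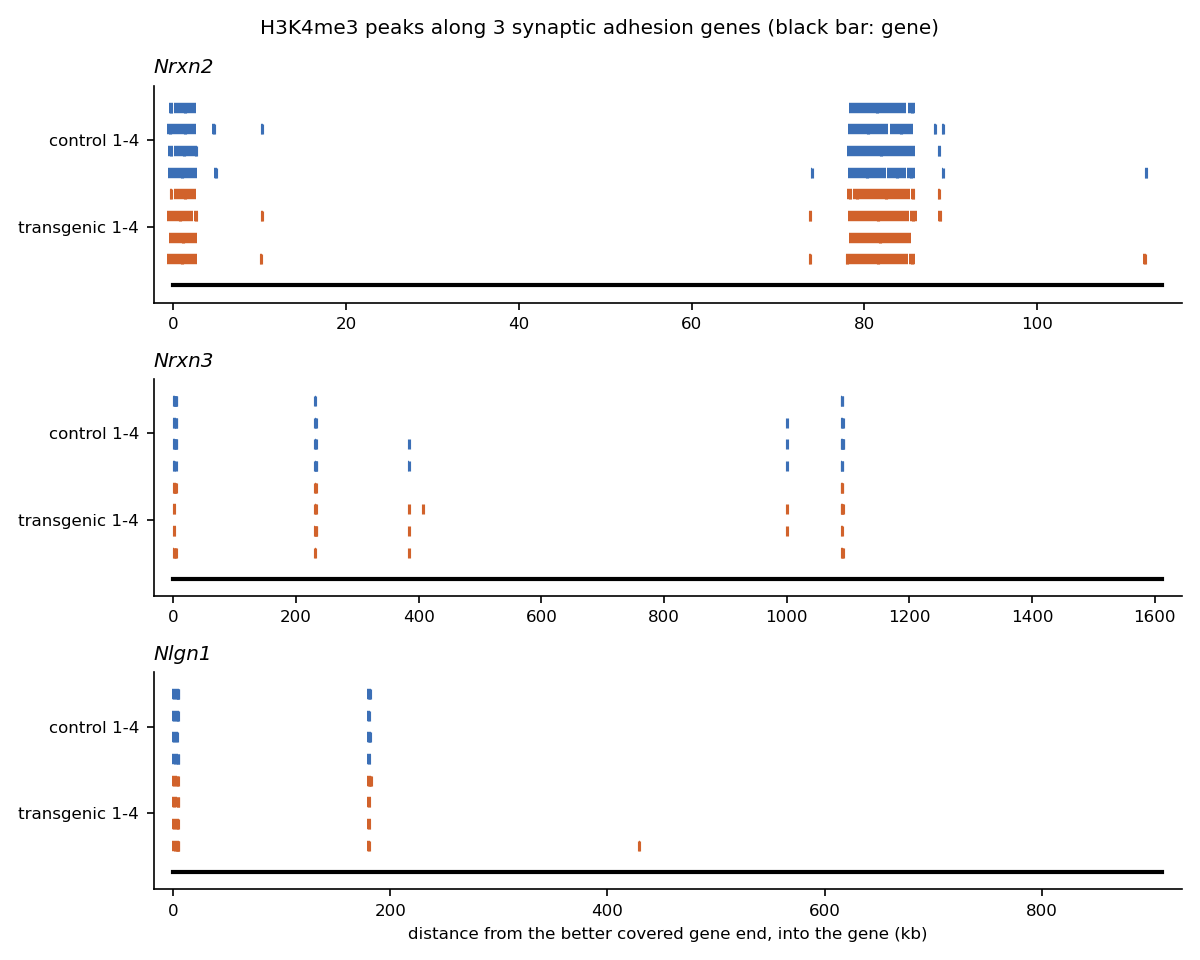
H3K4me3 peaks of each library along Nrxn2, Nrxn3 and Nlgn1; the x axis is the distance in kb from the better covered gene end into the gene, each row of marks is 1 library (blue control 1 to 4, orange transgenic 1 to 4 from top to bottom) and the black bar is the gene. Peaks are drawn to scale with a tick of fixed width at each centre so that narrow ones can be seen; the widest marks recur in all 8 libraries, as from 77.8 kb in Nrxn2, and some narrow ones are found in part of them.

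No region at a member passed the test for a difference between the genotypes. The limma test called 0 of 116 and 35 of all 72683 regions, a background of 0.0482% (0.0454% higher and 0.00275% lower in the transgenic libraries). The smallest adjusted p was 0.141, at Lrfn5. At an unadjusted p under 0.05, 2 member regions were higher and 14 lower in the transgenic libraries, against 3269 and 1316 of all regions, or 4.5% and 1.81%. Together these were 13.8% of the member regions and 6.31% of all regions. Centring moved these values as a block: without it the median over all regions rose from 0.03 to 0.13, 3 member regions were higher and 0 lower at that p, and 74 lay above 0 and 42 below instead of 41 and 75. With quantile normalization 1 was higher and 4 were lower. Groups that did not overlap were found in 0 member regions, against 3.43% of all regions.

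The 14 regions that were lower on the centred scale were all present in all 8 libraries, and in 13 of them peaks covered more than 3 kb on average. Among the 27 member regions of that kind, a class picked after the values had been seen, 26 lay below 0 with a median log2 difference of -0.10, which was 0.00 without centring. The same class over the genome held 1952 regions, of which 1615 lay below 0, with a median of -0.07, or 0.03 without centring. In the member class 13 of 27, or 48.1%, had an unadjusted p under 0.05, all of them lower, and in the genome class 399 were lower and 66 higher, together 23.8%. The difference between these shares was not tested. Centring subtracted 0.11 from each log2 difference, so a region equally long in both groups reads below 0. In bp the transgenic mean was the lower one in 12 of the 14 regions. Without centring 11 of the 14 lay below 0 and 3 above, from -0.25, inside Cntn4, to 0.01, with a median of -0.01, and 0 had an unadjusted p under 0.05.

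The region with the smallest p was that at the gene end of Lrfn5, chr12:61521435-61527110, with 5108, 5465, 5357 and 5249 bp in control and 4539, 5210, 5097 and 5009 bp in transgenic libraries. Of the transgenic values 1 lay within the control range and 3 below it, and the log2 difference was -0.20 (SE 0.05, limma adjusted p 0.141). The gene end of Adgrl2, chr3:148986277-148991160, had 4297, 4500, 4193 and 4688 bp in control and 4137, 4021, 4048 and 4529 bp in transgenic libraries. Here 3 transgenic values lay below the control range, and the log2 difference was -0.18 (SE 0.05, limma adjusted p 0.244). At Slitrk3, a partner of Ptprd at inhibitory synapses, chr3:73051450-73058766 had 6719, 7317, 7022 and 6775 bp in control and 6341, 6889, 7051 and 6866 bp in transgenic libraries, 3 of which lay within the control range. The log2 difference was -0.14 (SE 0.04, limma adjusted p 0.315).

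The 3 regions with the smallest p above 0 were narrow and mostly present in part of the libraries. In Slitrk5, chr14:111678559-111679224 had no peak in the control libraries and 320, 546, 301 and 0 bp in the transgenic ones, a log2 difference of 1.59 (limma adjusted p 0.702). It lies directly beside a wider region present in all 8 libraries, and with peaks within 500 bp joined the value was -0.0020. In Cntnap2, chr6:47245041-47245734, near the gene's far end, had no peak in control and 564, 279, 258 and 0 bp in transgenic libraries, a log2 difference of 1.52 (limma adjusted p 0.702). It too lies directly beside another region, chr6:47244358-47244977, covered over 285, 476, 480 and 549 bp in control and 0, 433, 531 and 493 bp in transgenic libraries, and with peaks within 500 bp joined the value was 0.3350. In Adgrl1, chr8:83908615-83910011 had 218, 441, 294 and 312 bp in control and 204, 1065, 667 and 1142 bp in transgenic libraries, with transgenic replicate 1 the lowest of all, and a difference of 0.79 in log2 (SE 0.42, limma adjusted p 0.702). It was 1.22 without that replicate and 0.32 with quantile normalization.

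The widest internal regions of Nrxn2, Lrrtm1, Nrxn3 and Ptprs, which were rich in internal bases, overlapped between the groups. That of Nrxn2, with the values given above, had a difference of -0.09 in log2 (SE 0.04, limma adjusted p 0.634), or 0.01 without centring. That of Lrrtm1 is the whole of its internal coverage, with a difference of -0.11 in log2 (SE 0.04, limma adjusted p 0.495). The Nrxn3 region at 88952843 had 1573, 1708, 2369 and 2408 bp in control and 2483, 1881, 2193 and 2511 bp in transgenic libraries, a difference of 0.07 in log2 (SE 0.12, limma adjusted p 0.970). The region of Ptprs at chr17:56461391-56463448, which holds its second annotated start, had 1689, 1754, 1868 and 1991 bp in control and 1597, 1764, 1745 and 1860 bp in transgenic libraries, a difference of -0.17 in log2 (SE 0.09, limma adjusted p 0.702).

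Summed over the members, gene-end coverage was 85.9 ± 3.11 kb in control and 86.9 ± 4.65 kb in transgenic libraries (SD, n = 4 each). Over all protein-coding genes it was 24.0 ± 1.10 and 24.6 ± 1.36 Mb. Internal coverage of the members was 93.2 ± 6.56 kb in control and 98.5 ± 6.12 kb in transgenic libraries, and 91627 ± 6582 and 94777 ± 6297 bp without Cntnap3. Over all genes it was 10.9 ± 0.851 and 12.4 ± 0.995 Mb. These sums were not tested, and they did not all follow how much was called in each library. Transgenic replicate 1, with the most bases under peaks, had the lowest gene-end sums, 80.3 kb over the members and 22.7 Mb over all genes. Its internal sum was 90.8 kb over the members, and over all genes 13.8 Mb, the highest of the libraries.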

How the data were processed

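H3K4me3 was measured in 8 libraries, 4 per genotype, grouped by their titles; 2 input samples were not analysed here. Per the submitters' processing notes the authors used Bowtie2 2.0.2, MACS2, DiffBind, limma, SAMtools 1.3.1, FastQC 0.11.5 and deepTools 3.0.1 on the build mm10. Their settings, and the background of each list, are not stated there or in the labels. The authors deposited 1 peak list per library. Its columns follow the layout of the peak caller: a whole-number score, a fold enrichment (a ratio), −log10 p, −log10 q and the summit's offset, all deposited as the authors made them. The score served only for ranks inside 1 list, and the fold was not used. Without read counts the depth is unknown and no counting interval can be given, and covered length can grow with depth and with the quality of the precipitation. The letters in the sample descriptions and in the deposited lists' names do not match, while the group names do.

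Peaks were merged per library and their bases counted in each gene's windows, with gene positions and start windows from RefSeq GRCm38.p6. The better covered end was chosen on all 8 libraries together, without regard to genotype. The start table used covers 28 members. Coverage was tested as log2(bp + 100), centred per library, with the moderated test of limma 3.58.1 (R 4.3.3; trended, robust variance) over all genes with a peak in at least 4 libraries, or over all regions with a peak in at least 2, with Benjamini-Hochberg adjustment at 0.05. The fits were tested on simulated data. No label names separate animals; p-values then measure only how far these samples spread, and that spread may be technical.

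The members and lists were chosen with earlier results of these data known. Full values are given for members past the threshold (there were none), the 3 smallest p in each direction, neurexins, neuroligins and LAR-type phosphatases, and the widest members; for regions, the 3 smallest p in each direction and the widest internal region of the 5 members with most internal bases. The values of 1 member, which is included in the counts, are not reported here. From the list of partner genes the 2 smallest p in each direction are named. Other settings tried were other windows, pseudocounts, filters, peak thresholds, scalings and variance models, a replicate block and leaving out each library.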

Additional observations from a re-analysis of the deposited data

How the results depend on the processing

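Under all 62 alternatives, 0 members were called at the gene end, inside the gene or among regions, and the smallest adjusted p of a member was 0.0719, at a region of Slitrk3 without control replicate 4. Of 733 values for 36 named differences, 697 kept their sign and 36 changed it, and 21 differences kept their sign throughout. For those that changed sign the cause was not tested beyond what the setting itself changes.

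Without centring the gene-end value of Ptprs became 0.0078; the inside values 0.0594 for Nlgn1, 0.0202 for Nlgn2, 0.0130 for Nrxn2, 0.0670 for Nrxn3, 0.0359 for Ptprf and 0.0503 for Ptprs; and the internal region of Nrxn2 0.0127. A window of 1 kb gave -0.0006 for Cntnap2, 0.0501 for Nrxn3 and 0.0147 for Ptprs. A window of 5 kb gave 0.0096 for Nrxn2, -0.0371 for Ptprd and 0.0104 for Ptprs. Inside the gene, equal numbers of top-ranked peaks gave 0.0534 for Ptprf, over 5 kb from both ends gave 0.0113 for Nrxn3, peaks with −log10 q of at least 5 gave 0.0288 for Nrxn3, and whole peaks off the better end gave 0.0250 for Nlgn1 and 0.2376 for Nlgn2. Joining peaks within 500 bp gave -0.0020 for the Slitrk5 region.

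Leaving out each library in turn, the gene-end values ran from -0.0855 to 0.0417 for Nrxn3, -0.0066 to 0.0408 for Ptprd, -0.0609 to 0.2313 for Ptprf and -0.0333 to 0.0020 for Ptprs. The inside values ran from -0.0684 to 0.0352 for Nlgn1, -0.0941 to 0.0677 for Nrxn3 and -0.1138 to 0.0172 for Ptprf, and the Nrxn3 region from -0.0189 to 0.1504.

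Over all regions of the genome the count called was 35. It was 118 without centring and 296 with the moderated test run without the trended, robust variance. Equal numbers of top-ranked peaks gave 0, as did a peak in at least 4 libraries. The count was 3 with −log10 q of at least 5, 16 with peaks joined and 20 with quantile normalization. A pseudocount of 10 bp gave 15, one of 500 bp 39, and autosomes alone 10. With 1 library left out it ran from 15 (without transgenic replicate 1) to 54 (without control replicate 3).

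Same-numbered libraries of the groups did not deviate together: the correlations were -0.06, -0.13, -0.16 and 0.17 at gene ends and -0.37, -0.41, -0.40 and -0.25 inside genes, and not every library correlated best with its own number. The numbers were therefore not taken as pairs. With them as a replicate block, 0 members and 0 of all regions were called, as against 0 and 35 without.

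Covered length without counts cannot show a change in peak height, the window holds no more than 4001 bp, and wide intervals, as at the gene end of Slitrk6 or inside Cntn5, do not exclude changes above 1.5-fold.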

Other observations

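No gene on a list of partners, organisers and scaffolds of the synaptic adhesion proteins passed the test. Of 58 listed genes, which are no members, 52 had a peak at the gene end in all 8 libraries and 51 did so inside the gene. The limma test called 0 of 53 at the gene end and 0 of 51 inside. At an unadjusted p under 0.05 there was 1 at the gene end, against 4.12% of all genes, and 3 inside, against 6.05%. On the centred scale 12 of the 53 lay above 0 and 41 below in log2 difference, with a median of -0.04 against -0.01 over all genes. Of the 51 inside 23 lay above and 28 below, with a median of -0.01. Over all genes 46.4% lay above 0 at the gene end and 46.3% inside. The difference of the partner genes from these shares was not tested.

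At the gene end the smallest p belonged to Cdh2, which encodes N-cadherin, with 3066 ± 215 bp in control and 2865 ± 303 bp in transgenic libraries (SD, n = 4 each; log2 difference -0.12, limma adjusted p 1.00). Lrrc4, an adhesion gene of excitatory synapses, had 3982 ± 38.5 and 3818 ± 320 bp (-0.08, limma adjusted p 1.00). Above 0 were Adam22, a receptor of the secreted Lgi1 protein, with 1678 ± 255 and 1924 ± 183 bp (0.17, limma adjusted p 1.00), and Dlg4, the gene of the scaffold PSD-95, with 1754 ± 163 and 1882 ± 28.5 bp (0.08, limma adjusted p 1.00). Inside the gene, Ntrk3, a neurotrophin receptor that also binds Ptprs, had 5584 ± 368 and 5310 ± 149 bp (-0.16, limma adjusted p 0.740), and Gphn, the gene of the inhibitory scaffold gephyrin, 2998 ± 145 and 2832 ± 148 bp (-0.17, limma adjusted p 0.806). Nptx1, a secreted pentraxin that gathers AMPA receptors, had 2608 ± 286 and 3306 ± 365 bp (0.24, limma adjusted p 0.813), and Mdga1, which binds neuroligins, 2650 ± 538 and 3260 ± 263 bp (0.21, limma adjusted p 0.891). None of these differences passed the threshold of 0.05.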
